A study of Mus musculus with 6 samples.

Results

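The 9 genes described here are ones that injured or cystic renal tubules are known to induce. Their levels were measured in mDCT15 cells, a mouse line from the distal convoluted tubule. The genes are *Lcn2*, *Havcr1*, *Spp1*, *Clu*, *Vcam1*, *Icam1*, *Cd44*, *C3* and *Cp*. They were found by symbol in the deposited table, which held all 9 of them among 20624 genes. RNA was sequenced from 3 *Pkd1*-/- and 3 wild type samples, grown in the same medium with 5% serum, and the labels name no treatment. The *Pkd1*-/- cells had been made by CRISPR-Cas9 editing of the line, and the genotype field of their labels calls them a knockdown where the titles give *Pkd1*-/-. The labels number the samples of each genotype as biological replicates.

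The values used here are mean normalized counts. For each gene, reads were counted in each sample, scaled by the size factor of the library and averaged over all 6 samples. Each value therefore pools *Pkd1*-/- and wild type cells, has no replicate error and gives no level for either genotype, so the question the study asked of these samples, which genes differ without *Pkd1*, was not tested here. The pooled value does set a limit. With 3 samples in each genotype, the mean of 1 genotype cannot be more than 2 times the mean over all samples. Depth per sample is unknown, and the means of all genes add up to 16746088. The pooled level of *Pkd1* itself was 3175, which cannot check the knockout because both genotypes enter it.

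The genes cover several steps of the tubular response to injury. Damaged tubule cells release proteins that bind iron, handle debris or attract and hold leukocytes, and many of the same genes are raised in the epithelium that lines renal cysts. *Lcn2* encodes lipocalin 2 (NGAL), a secreted protein that binds iron-carrying siderophores, and *Havcr1* encodes KIM-1, a receptor for phosphatidylserine on dying cells. Both are used as markers of acute tubular injury. *Spp1* (osteopontin), *Clu* (clusterin, an extracellular chaperone), *C3* (the central protein of the complement cascade) and *Cp* (ceruloplasmin, a copper-dependent ferroxidase) encode secreted proteins. *Cd44* encodes a receptor for hyaluronan and osteopontin, and *Vcam1* and *Icam1* encode adhesion proteins of the immunoglobulin superfamily that are bound by leukocyte integrins.

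By pooled level, the 9 genes fell into a group of 4 in the upper part of the table and a group of 5 in the lower part. *Cp*, *Cd44*, *Clu* and *Spp1* lay above the median of all genes, which was a mean normalized count of 104.5, and *Vcam1*, *C3*, *Lcn2*, *Icam1* and *Havcr1* lay below it. A pooled mean sets no lower limit for either genotype, so whether both genotypes expressed the 4 higher genes was not tested. Of these 4, *Spp1* (611) was nearest the median of the protein-coding genes, a mean count of 474. The 4 higher genes held 99.2% of the summed level of all 9, and *Cp* alone held 56.4%. Between the lowest of the higher group and the highest of the lower group, per kilobase of merged exons, there was a 39.9-fold gap (*Clu* over *Vcam1*). On the mean normalized counts, which are not corrected for length, the gap was 18.5-fold (*Spp1* over *Vcam1*). The median of the 9 genes was 3.66 normalized counts per kilobase, beside 28.6 for the 20122 genes with a length and 72.7 for the protein-coding genes among them.

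**Figure D1:**
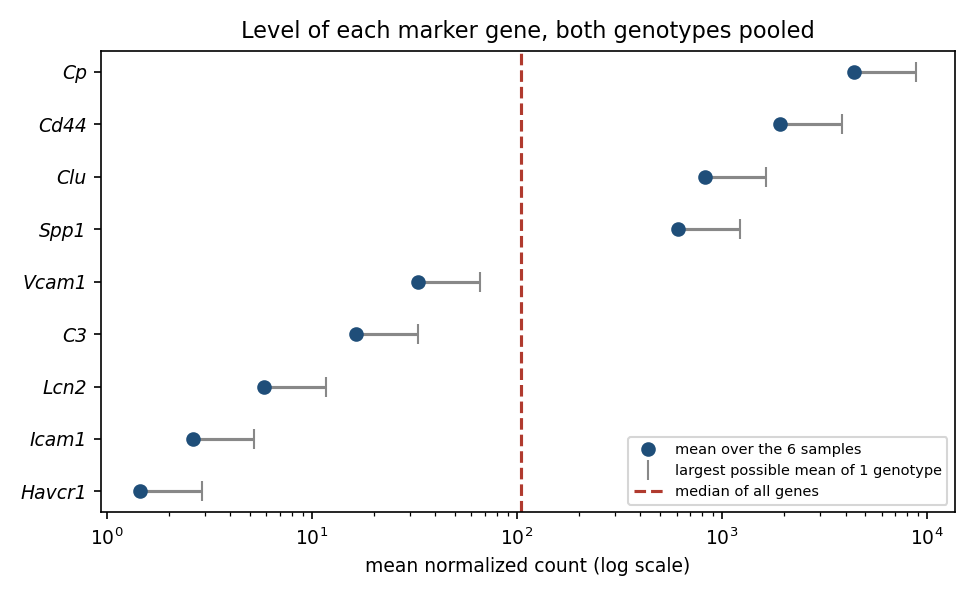
Mean normalized count of each marker gene over the 6 samples (points, log scale), with a grey line to the largest mean that 1 genotype could have, which is 2 times the pooled mean. The dashed line is the median of all genes at 104.5, and the lines of the 5 lower genes end below it.

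*Cp* (ENSMUSG00000003617, plus strand of chromosome 3 from 20011090 to 20063930 on GRCm39) had the highest level of the 9. Its mean normalized count was 4412, and divided by the 11205 bp of its merged exons this was 394 per kilobase, above 92.6% of the genes with a length. This made the ferroxidase 13.8 times the median gene per kilobase. *Cd44* (ENSMUSG00000005087, minus strand of chromosome 2 from 102641486 to 102732010) followed at 1919 normalized counts. Its level per kilobase was 283, above 88.8% of genes. The step from *Cp* to *Cd44* was 1.39-fold per kilobase of merged exons, 2.33-fold with the longest transcript and 1.65-fold with coding length. Whether it exceeds the spread between samples was not tested, since no sample was analysed singly. The same holds for each step in the order.

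*Spp1* (ENSMUSG00000029304, plus strand of chromosome 5 from 104582165 to 104589235) reached 611 normalized counts, or 215 per kilobase, above 84.5% of genes. Exons of *Gm42793*, annotated on the same strand, cover 12.7% of its exonic bases, and reads there may go to neither gene or to the other. *Clu* (ENSMUSG00000022037, plus strand of chromosome 14 from 66190200 to 66218999) had the larger count, 823, but 5632 bp of merged exons against 2843 bp for *Spp1*. Per kilobase it stood at 146, above 77.4% of genes. The order of the chaperone and of osteopontin thus turned on length. With the longest transcript of each gene in place of the merged exons, *Clu* was at 380 per kilobase and *Spp1* at 248.

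**Figure D2:**
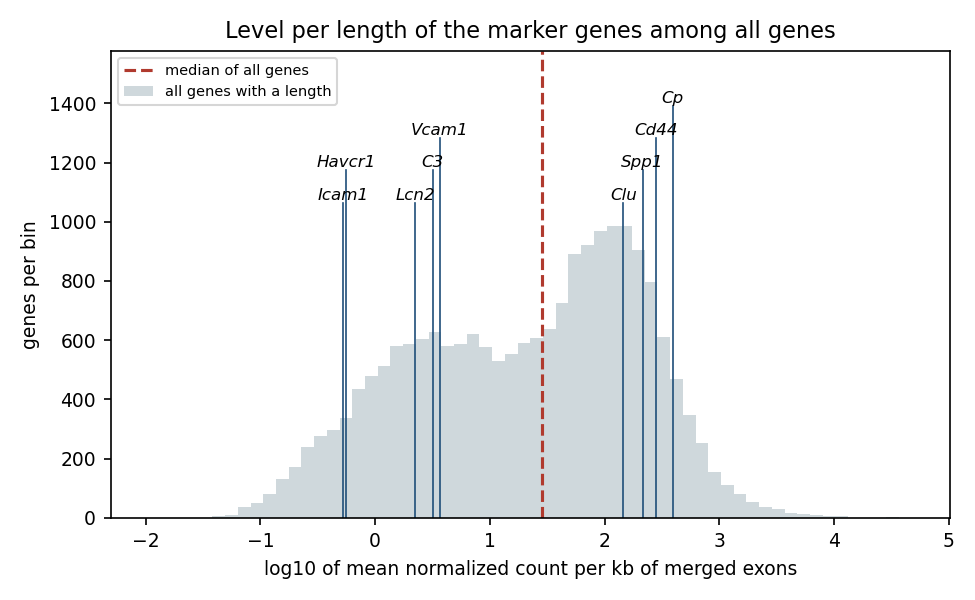
Histogram of all genes with a length by the log10 of their mean normalized count per kilobase of merged exons, with a vertical line for each marker gene and a dashed line at the median of 28.6. *Clu*, *Spp1*, *Cd44* and *Cp* lie to the right of the median and the other 5 genes to its left.

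The adhesion genes and *C3* were low. *Vcam1* (ENSMUSG00000027962, minus strand of chromosome 3 from 115903598 to 115923355) reached 32.9 normalized counts and 3.66 per kilobase, so that 26.8% of genes lay below it. *Icam1* (ENSMUSG00000037405, plus strand of chromosome 9 from 20926672 to 20940113), the other leukocyte ligand, averaged 2.62 and 0.527 per kilobase, below all but 6.95% of genes. Its mean adds up to 15.7 normalized counts over the 6 samples together. Exons of *Gm47079* on the opposite strand cover 10.3% of its exonic bases, the largest such share among the 9 genes. The sources give the strand setting of the counting only as the default. Whether the level of this or any other gene counts the reads from its own strand was not tested. *C3* (ENSMUSG00000024164, minus strand of chromosome 17 from 57510964 to 57535155) averaged 16.4 normalized counts and 3.17 per kilobase. How far the secreted complement protein lay below *Vcam1* depended on the length used. *Vcam1* was 1.16 times *C3* per kilobase of merged exons, 2.54 times with the longest transcript and 4.52 times with coding length.

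The standard injury markers were barely detected. *Lcn2* (ENSMUSG00000026822, minus strand of chromosome 2 from 32274645 to 32278264) averaged 5.86 normalized counts, or 35.2 over all 6 samples, and a level of 2.24 per kilobase. *Havcr1* (ENSMUSG00000040405, plus strand of chromosome 11 from 46625907 to 46670405) was the lowest of the 9, at 1.45, or 8.72 over all samples, and 0.562 per kilobase. Even if every read came from 1 genotype, that genotype would have had a mean of at most 11.7 for *Lcn2* and 2.91 for *Havcr1*. The same limit was 65.8 for *Vcam1*, 32.8 for *C3* and 5.24 for *Icam1*. All 5 limits lay under the median of all genes. *Lcn2*, *Icam1* and *Havcr1* were among the 6900 genes (33.5% of the table) with a mean under 10, where single reads move the value, and their order among themselves should be read with that in mind. *Icam1* was below *Havcr1* per kilobase by 1.07-fold, and above it with coding length or the longest transcript.

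Proteins that bind these 9 stood both above and below them. Of 14 pairs of a marker gene and a binding or working partner, the partner was the higher per kilobase in 8 and the lower in 6. With coding length it was the higher in 9. The pairs were put together for their known relation after the levels had been seen. The listed genes *Itga4*, *Itgam*, *C3ar1* and *Has1* had no row and could enter no pair, so the counts cover only partners with a level. *Lrp2* (megalin), an endocytic receptor that takes up lipocalin 2 and clusterin, stood at 528 per kilobase, 236 times *Lcn2* and 3.61 times *Clu*. With coding length *Lrp2* was 1.10 times *Clu*. The other clusterin receptors were lower than *Clu*, with *Lrp8* at 135 per kilobase (0.925 of *Clu*, and 1.02 with coding length) and *Vldlr* at 32.3 (0.221 of *Clu*). *Slc22a17*, another lipocalin 2 receptor, stood at 44.5 per kilobase. *Itgb1*, part of the integrin that binds VCAM-1, stood at 2945 per kilobase and *Vcam1* at 3.66. The other chain of that integrin, *Itga4*, was not analysed here for want of a row. For *Spp1*, at 215 per kilobase, the partners lay on both sides. The integrin chain *Itgav* stood at 309 and *Cd44* at 283, while *Itgb3*, which pairs with *Itgav*, stood at 87.2. The chains of the leukocyte integrin that binds ICAM-1 were below their ligand, with 0.374 per kilobase for *Itgb2* and 0.137 for *Itgal*. *Itgb2* (mean 1.21), *Itgal* (0.904) and *Icam1* (2.62) were all under 10, where single reads move the value, so their order is uncertain. Of the 17 receptor and ligand genes listed, 13 had a level and 9 of these lay above the median of all genes per kilobase, led by *Itgb1*, *Lrp2* and *Itgb5* (396 per kilobase). Against the median of the protein-coding genes, 7 did.

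Other complement genes were low along with *C3*. Of 16 listed, 9 had a level and 3 were above the median of all genes per kilobase, but 0 above that of the protein-coding genes. The 3 were *C1ra*, a protease of the classical pathway, at 44.1 per kilobase, the membrane regulator *Cr1l* at 41.5, and *Cfp* (properdin) at 36.0. Iron and copper genes that had a level stood with *Cp* rather than with *Lcn2*. Of 14 listed, 11 had a level and 10 of these were above either median, while 3 had no row. The ferritin chains *Ftl1* and *Fth1* were at 3136 and 1655 per kilobase, and the metallothionein *Mt2* at 841. The iron exporter *Slc40a1* (ferroportin), which works with ceruloplasmin, was at 132 per kilobase, and *Cp* was 2.99 times that level.

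Other genes listed as markers of tubular injury were mostly above the median. Of 22 listed, 18 had a level and 17 of these were above the median of all genes and 15 above that of the protein-coding genes, with a median of 335 per kilobase. The intermediate filament gene *Vim* stood at 3672 per kilobase, *B2m* at 1863 and *Anxa2* at 1670. Whether any of these levels reflects injury of the cells was not tested. All 13 listed genes of inflammatory transcription had a level, and 12 were above the median of all genes (11 above that of the protein-coding genes), led by *Rela* (628 per kilobase), a subunit of NF-kB, its family member *Nfkb2* (375) and *Cebpb* (330). Textbook targets of NF-kB lay on both sides of the median of all genes. *Lcn2*, *Icam1* and *Vcam1* were below it, whereas *Nfkbia* (300 per kilobase), *Ccl2* (267), *Cxcl1* (87.2) and *Tnfaip3* (78.1) were above it.

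**Figure D3:**
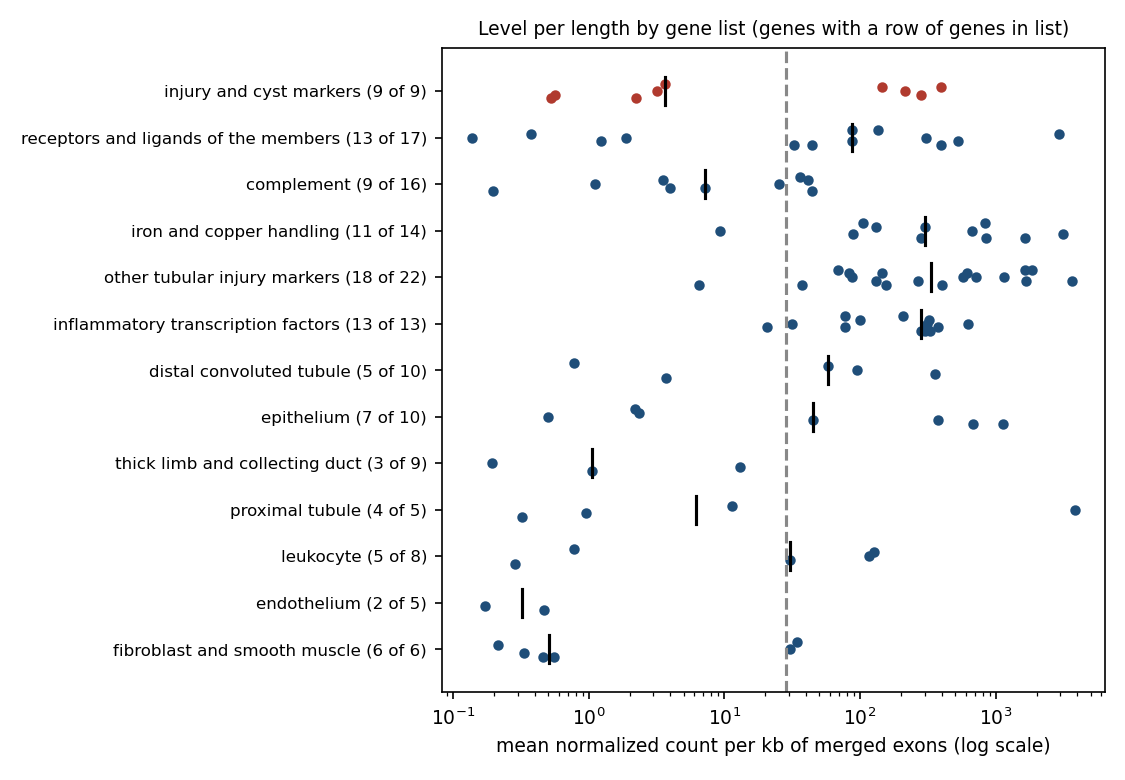
Mean normalized count per kilobase of merged exons (log scale) for each gene with a level, by list, with the number of genes that have a level out of the genes listed. Black bars are list medians and the dashed line is the median of all genes. The 9 marker genes (top) split to both sides of it, with a median of 3.66, while the other tubular injury markers have a median of 335.

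The identity of the cells was checked against markers. Of 10 genes of the distal convoluted tubule, 5 had a level. The kinase gene *Wnk1* was at 359 per kilobase, *Wnk4* at 94.5 and *Stk39* at 57.9, whereas *Klhl3* had a mean of 5.70. *Slc12a3*, which encodes the sodium chloride cotransporter that defines this segment, had no row in the table used, nor had *Pvalb*, *Calb1*, *Slc8a1* or *Emx1*. Among 10 epithelial genes the renal epithelial genes *Cdh16* (1125 per kilobase), *Pax8* (679) and *Pax2* (373) led, *Krt8* (mean 0.980) and *Cldn4* (mean 4.00) were under 10, and *Cdh1*, *Krt18* and *Krt19* had no row. Of 5 proximal tubule genes, *Aqp1* was at 3815 per kilobase, with *Cubn* at 11.3. *Lrp2*, counted above with the receptors, is also a proximal tubule gene, and its 528 per kilobase was above 95.2% of genes. *Slc5a2* (mean 2.77) and *Slc34a1* (mean 2.04) were under 10, and *Slc22a6* had no row. Of 9 thick limb and collecting duct genes, 3 had a level. *Scnn1a* was at 13.1 per kilobase, *Aqp3* (mean 1.95) and *Scnn1g* (mean 0.618) were under 10, and *Umod*, *Slc12a1*, *Aqp2*, *Scnn1b*, *Foxi1* and *Atp6v1b1* had no row.

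Several of the 9 genes are also expressed by leukocytes, endothelium or fibroblasts. Of 8 leukocyte genes, *Cd14* was at 126 per kilobase, *Csf1r* at 115 and *Cd68* at 30.6. The pan-leukocyte gene *Ptprc* had a mean of 5.36 and *Lyz2* of 2.57, and *Adgre1* and *Cd3e* had no row. Of 5 endothelial genes, *Pecam1* (mean 4.68) and *Tek* (mean 1.04) had a level, both under 10, and *Kdr*, *Cdh5* and *Emcn* had none. Of 6 fibroblast and smooth muscle genes, *Acta2* was at 34.2 per kilobase, *Col1a1* at 30.5 and *Pdgfrb* at 0.553. *Pdgfrb* (mean 4.48), *Dcn* (6.01), *Pdgfra* (4.12) and *Col1a2* (2.71) were under 10. The part of other cell types in the levels of the 9 genes was not tested.

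Promoters were compared for their content of CpG, a dinucleotide in which the promoters of widely expressed vertebrate genes are rich. RefSeq (table on GRCm38.p6) gave 11 promoter windows for 7 of the genes. *Clu* and *Vcam1* had none. Each window was taken as the 250 bases before a transcript start and placed on GRCm39 by its exact match. The windows of *Cd44*, from the higher group, and *C3*, from the lower, are shown because they lie before the annotated start of the gene, apart from 19 bases of the *C3* window. Those of *Icam1* and of 1 start each of *Cp*, *Spp1* and *Havcr1* lie wholly inside exons of the later annotation. The window of *Lcn2*, with 197 exonic bases, and the remaining windows of *Spp1* and *Havcr1* also lie wholly inside the annotated gene. The other *Cp* window has 122 bases before the gene. For these windows the counts below thus describe largely or only sequence within the gene. The windows of *Cd44* and *C3* are read 5′ to 3′ on the minus strand, at chr2:102732011-102732260 and chr17:57535137-57535386, with every CpG in capitals.
Cd44: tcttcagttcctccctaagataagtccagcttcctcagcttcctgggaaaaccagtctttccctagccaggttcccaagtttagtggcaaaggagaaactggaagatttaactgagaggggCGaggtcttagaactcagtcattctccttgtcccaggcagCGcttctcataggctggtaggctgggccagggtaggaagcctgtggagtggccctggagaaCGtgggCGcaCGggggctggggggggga
C3: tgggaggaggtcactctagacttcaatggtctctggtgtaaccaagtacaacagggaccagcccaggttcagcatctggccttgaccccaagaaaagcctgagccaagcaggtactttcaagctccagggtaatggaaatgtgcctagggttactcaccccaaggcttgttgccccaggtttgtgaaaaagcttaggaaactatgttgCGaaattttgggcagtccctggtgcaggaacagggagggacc

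The window of *Cd44* holds 5 CpG and that of *C3* holds 1, beside a median of 6 over all 32851 windows. Corrected for base composition, the observed over the expected number of CpG was 0.257 for *Cd44* and 0.060 for *C3*. It was under 0.6, a usual limit for CpG-rich sequence, in all 11 windows, against 34.0% of all windows at or above that limit. *Icam1* came nearest, with 15 CpG and a ratio of 0.580. Low CpG content thus did not separate *Cp*, *Cd44* and *Spp1* from *C3*, *Lcn2*, *Icam1* and *Havcr1*. Across the table, the 3863 genes whose window with most CpG was under the limit had a median of 10.8 per kilobase, beside 94.8 for the 7940 genes at or above it. *Cp* lay above 95.0% of the former. As a description of the letters alone, on both strands, TATAAA was found in 2 of the 11 windows (1 of *Cp* and 1 of *Spp1*), TGANTCA in 1 (*Cp*), TTCNNNGAA in 1 (*Icam1*) and the NF-kB consensus (GGG, a purine, any 2 bases, 2 pyrimidines, then CC) in 0. Of all windows, 12.4%, 6.75%, 7.02% and 7.25% hold them in that order. No matches of different motifs overlapped in these windows. The count for NF-kB depended on the first letter. With any first base, a setting chosen after the windows had been seen, 2 windows matched, that of *Icam1* (tggaaattcc) and that of *Lcn2* (ggggagtcct), beside 22.9% of all windows.

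**Figure D4:**
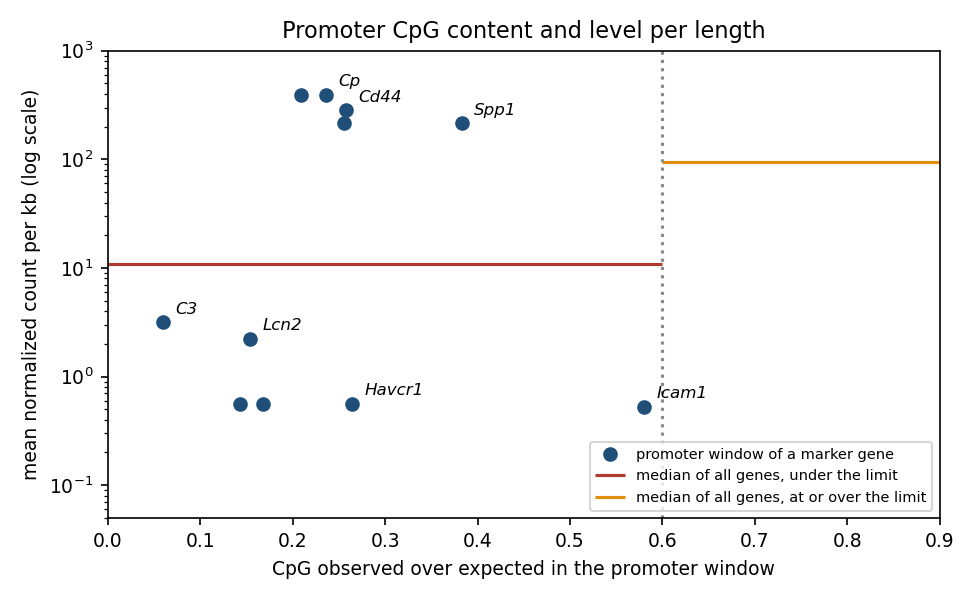
Observed over expected CpG in each promoter window (x axis) against the mean normalized count per kilobase of its gene (y axis, log scale) for the 7 marker genes with windows, 1 point a window. The dotted line is the limit of 0.6, and horizontal lines are the medians of all genes under it (10.8) and at or above it (94.8). All 11 points lie left of the limit, at high and low levels alike.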

How the data were processed

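RNA was sequenced from 3 *Pkd1*-/- and 3 wild type mDCT15 samples after ribosomal RNA depletion, and samples were grouped by their titles. Per the labels and the methods, the authors trimmed reads with Trim Galore 0.4.5, mapped them with STAR 2.7.5a to GRCm39, counted them per gene with HTSeq 0.11.0 and normalized them with DESeq2 1.22.0 in R 3.5.3. The one column used is the authors' mean normalized count, a signal averaged over all 6 samples. The other numeric columns of the deposited table hold the authors' own comparison of the genotypes (log2 fold change, standard error, statistic and p-values) and were not used. The methods state a minimum of 5 counts per sample, but 5385 of the genes have a mean under 5.

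Levels were divided by merged exon length in GENCODE M39 on GRCm39, a later annotation than the authors', in which 20122 identifiers (97.6%) were found. A percentile is the share of genes with a lower value. A gene counted as low under a mean of 10. The design named a count test, which the values did not allow. The 9 genes, the lists and the motifs were chosen with earlier results of these data known. Named genes were the 9, the 3 highest per kilobase of each list and, for cell types, those with no row or under 10. Partners of the 9 and targets of NF-kB outside this rule were named after their values were seen, other listed genes enter the counts only, and 1 gene under the rule is not reported here. Functions were tested on simulated data. Python 3.11.15, numpy 2.4.6, pandas 2.3.3 and matplotlib 3.10.9 were used.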

Additional observations from a re-analysis of the deposited data

How the results depend on the processing

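*Cp*, *Cd44*, *Clu* and *Spp1* were above the median of all genes, and the other 5 below it, in all 8 settings: the mean count and the count per kilobase over all genes, over genes that reached a mean of 10 and over protein-coding genes, and the count per kilobase of the longest transcript or of the coding sequence. Limiting the genes to those with a mean of 10 raised the median to 492, and to 80.9 per kilobase. Limiting them to protein-coding genes raised it to 474, and to 72.7 per kilobase. The 5 lower genes could not change side when the genes were limited in these ways, so these limits bear only on the higher 4. With the other lengths both the levels and the median moved. The median was 39.3 per kilobase with the longest transcript and 323 with coding length. Within the higher and the lower group the order depended on length. With the longest transcript 2 of the 9 genes kept their rank, and with coding length 5 did. The level of a gene per kilobase was from 1.00 to 2.60 times as high with the longest transcript and from 1.04 to 4.06 times with coding length. The lists were more sensitive. Against the median of protein-coding genes, added after seeing the data, the complement genes above it fell from 3 to 0 and the fibroblast and smooth muscle genes from 2 to 0. No paired analysis was possible because the values are means over all samples. For the same reason the alternatives planned for the genotype difference (a replicate block, another count model and leaving out each replicate) were not run, and no error can be given for any level.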
